A study of Rattus norvegicus with 6 samples.

Results

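In order to describe how C-type lectin receptors responded when LPS-stimulated microglia also received siponimod, 10 genes were followed: the activating receptor genes Clec4d, Clec4e and Clec5a, the inhibitory Clec4a genes Clec4a, Clec4a1, Clec4a2 and Clec4a3, and Clec10a, Clec12a and Clec2d. They were taken by gene name from the 6 count tables and make up 10 of 23139 listed genes, and all 10 names were present. The names had been picked with the difference between LPS/siponimod and LPS in view, and the contrast between the activating and the Clec4a genes is part of that choice. Their differences between the conditions are therefore given as a description, without a p-value.

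C-type lectin receptors of myeloid cells bind sugars and lipids of microbes and of damaged cells. Clec4e (Mincle) and Clec4d (MCL) pass their signal through the adaptor Fcer1g, and Clec5a through the adaptors Tyrobp (DAP12) and Hcst (DAP10). Fcer1g and Tyrobp recruit the kinase Syk, which leads to the Card9, Bcl10 and Malt1 complex and to NF-kB. Clec4a (DCIR) and Clec12a (MICL) carry an inhibitory tyrosine motif that recruits the phosphatases Ptpn6 (SHP-1) and Ptpn11 (SHP-2). Which of the proteins of Clec4a1, Clec4a2 and Clec4a3 carry such a motif in the rat was not analysed here, so that these genes are called inhibitory as paralogs of Clec4a.

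The cells were primary microglia of Wistar rats, prepared from cortices at postnatal day 1, shaken off mixed cultures and sorted with magnetic beads against CD11b/c. All 6 samples received 100 ng/ml LPS, the endotoxin of Gram-negative bacteria, which activates microglia. The 3 LPS/siponimod samples also received 50 µM siponimod, a modulator of sphingosine-1-phosphate receptors, which was dissolved in DMSO. The 3 LPS samples received the solvent DMSO alone, in an amount that the methods call similar. Unstimulated cells and cells given siponimod alone were not analysed here. Each difference is thus one between LPS/siponimod and LPS, in cultured cells of newborn animals without the tissue around them. Messenger RNA was sequenced, and the total counts were 39484979, 38301365 and 38080379 in LPS replicates 1, 2 and 3 and 46643859, 43336006 and 38857441 in LPS/siponimod replicates 1, 2 and 3. Normalized read counts are given as CPM after TMM scaling, where 1 count corresponds to between 0.0215 and 0.0270 CPM. A differentially expressed gene (DEG) had a fold change of at least 1.5 and an adjusted p of at most 0.05 in edgeR's quasi-likelihood test with Benjamini-Hochberg adjustment over 11977 genes. These p-values measure the spread between 3 samples per condition, and an exact permutation test of a single gene cannot go below p = 0.1 with 3 against 3. The methods call the samples of a condition biological replicates.

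The labelled cell type was checked against marker genes. All 12 microglia markers were counted, and their summed level was 7235, 6126 and 4141 CPM with LPS and 3574, 4263 and 2847 CPM with LPS/siponimod, of which Csf1r, the receptor for colony stimulating factor 1, held 31.1%. Among them Aif1, Itgam, Gpr34 and Cx3cr1 were lower DEGs and Sall1 was a higher DEG, whereas Cd68 stood at 1075 ± 337 and 1076 ± 259 CPM (SD, n = 3 each). The calls of Aif1, Itgam, Cx3cr1 and Sall1 were lost without both libraries numbered 3 (replicate 3 of each condition), and each of the 5 calls was lost in 3 to 5 of the 6 fits without a single library. That of Sall1 was also lost when the replicate number was fitted as a block (adjusted p = 0.0433 without and 0.0553 with it, edgeR quasi-likelihood). Csf1r itself stood at 2108 ± 1079 and 812 ± 437 CPM, with an adjusted p of 0.106 without and 0.0375 with the block. The libraries of LPS/siponimod alone would not have passed the filter on low counts for Cx3cr1, which had to differ in order to be tested. In bulk RNA, fewer cells of a type and less RNA per cell cannot be told apart.

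Markers of other myeloid cells were also counted. The summed level of neutrophil and monocyte markers was 238, 206 and 83.3 CPM with LPS and 23.8, 56.5 and 6.76 CPM with LPS/siponimod. Csf3r, the receptor of granulocyte colony stimulating factor, which microglia also express, held 97.3% of it, while Mpo, Elane, Ltf and Ccr2 had no count in any library and S100a8, which passed the filter through the LPS libraries only, was a lower DEG (log2 FC -3.57), a call lost without both libraries numbered 3. Border macrophage markers summed to 2754, 1997 and 974 CPM with LPS and 580, 832 and 314 CPM with LPS/siponimod, of which Siglec1 held 83.1%, and Cd163 had at most 2 counts in any library. Mrc1 was the DEG of this list and was lower, whereas F13a1, which was not tested, had 3, 1 and 2 counts with LPS and 53, 5 and 38 counts with LPS/siponimod. The sums of the neutrophil and monocyte and of the border macrophage list did not overlap between the conditions, and neither Csf3r nor Siglec1 was a DEG. The quasi-likelihood adjusted p was 0.057 for Csf3r and 0.0792 for Siglec1, and 0.00853 and 0.0124 with the replicate block. Dendritic cell markers summed to 494, 459 and 1076 CPM with LPS and 382, 483 and 452 CPM with LPS/siponimod. Itgax, which activated microglia express as well, held 99.3% of this sum, which overlapped between the conditions, Cd209a was at 0 in all libraries and Flt3 had at most 5 counts. Of 6 listed T and NK cell markers in the tables, 4 had no count in any library.

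The libraries numbered 3 stood apart in both conditions. Olig1, a transcription factor of the oligodendrocyte lineage, had 1, 5 and 515 counts in LPS replicates 1, 2 and 3 and 2, 3 and 17 counts in LPS/siponimod replicates 1, 2 and 3. Pdgfra, a receptor of oligodendrocyte precursors, had 5, 4 and 284 counts and 1, 4 and 81 counts. The oligodendrocyte lineage list summed to 5.37, 5.37 and 36.0 CPM with LPS and 11.4, 10.3 and 22.6 CPM with LPS/siponimod, and its most abundant gene Mbp held 49.8% and was a higher DEG (log2 FC 1.74). The neuronal list summed to 1.67, 1.06 and 11.3 CPM and to 6.39, 9.28 and 17.0 CPM, respectively. Within it Snap25, a protein of synaptic vesicle release, differed with the condition and not with the number, with 0, 1 and 1 counts in the LPS libraries and 94, 153 and 81 counts in the LPS/siponimod libraries. Astrocyte markers, led by Slc1a3 with 93.3% of the sum, stood at 42.5, 21.0 and 21.7 CPM with LPS and 27.5, 26.8 and 57.7 CPM with LPS/siponimod. Endothelial and fibroblast markers, led by Cdh5 with 82.8% of the sum, stood at 134, 113 and 77.4 CPM with LPS and 46.1, 65.8 and 27.9 CPM with LPS/siponimod. Cdh5 had an adjusted p of 0.0684 without and 0.0142 with the block, and Flt1, a receptor for vascular endothelial growth factor, was a lower DEG (log2 FC -2.06). Dcn, a matrix proteoglycan gene of fibroblasts, went the other way within this list, with 3, 0 and 4 counts with LPS and 456, 49 and 178 counts with LPS/siponimod. Snap25 and Dcn were higher DEGs that passed the filter through the LPS/siponimod libraries only, and the call of Dcn was lost without both libraries numbered 3. The part of the genes of other cell types in the results was not tested. Values or calls without both libraries numbered 3 are therefore given beside main results, a choice made after seeing the data.

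The activating receptor genes were at low levels with LPS, at most 3.82 CPM in any library, and at far higher levels with LPS/siponimod. Clec4d was counted 65, 36 and 69 times in LPS replicates 1, 2 and 3 and 7419, 4401 and 7089 times in LPS/siponimod replicates 1, 2 and 3, corresponding to 1.75, 0.934 and 1.86 CPM and to 160, 98.6 and 173 CPM. The conditions were widely separated, and in both of them replicate 2 was the lowest. The mean was 1.52 ± 0.506 CPM with LPS and 144 ± 39.6 CPM with LPS/siponimod (SD, n = 3 each), 94.8-fold higher, with a log2 FC of 6.57 (standard error 0.39). Within the same-numbered pairs 1, 2 and 3 the log2 differences were 6.47, 6.65 and 6.50, so that the pairs lay closer together than the libraries of a condition.

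Clec5a, a receptor known for binding dengue virus, had 97, 56 and 142 counts with LPS and 7193, 7719 and 7430 counts with LPS/siponimod. These were 2.62, 1.45 and 3.82 CPM against 155, 173 and 181 CPM. The 3 LPS/siponimod libraries lay close together, with a coefficient of variation of 7.96%, against 45.0% among the LPS libraries, and replicate 2 was low with LPS but not with LPS/siponimod. The mean was 64.5-fold higher with LPS/siponimod (SD, n = 3 each: 2.63 ± 1.18 and 170 ± 13.5 CPM), and the log2 FC was 6.01 with a standard error of 0.39. Without both libraries numbered 3, the log2 FC was 6.59 for Clec4d and 6.33 for Clec5a.

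Clec4e, the receptor for mycobacterial cord factor, was counted 9, 14 and 34 times with LPS and 940, 588 and 1359 times with LPS/siponimod. It stood at 0.243, 0.363 and 0.915 CPM in the LPS libraries and at 20.2, 13.2 and 33.1 CPM in the LPS/siponimod libraries. Replicate 3 was highest in both conditions, and the highest LPS library was far below the lowest LPS/siponimod library. The mean was 43.7-fold higher (0.507 ± 0.358 and 22.2 ± 10.1 CPM, SD, n = 3 each), with a log2 FC of 5.44 (standard error 0.63), which was 5.77 without both libraries numbered 3. With single libraries left out, the log2 FC lay between 5.04 (without LPS/siponimod replicate 3) and 6.18 (without LPS replicate 3). Its LPS libraries alone would not have passed the filter on low counts, so that Clec4e had to differ in order to be tested. The plot of normalized counts by library shows the gap between the conditions for all 3 activating genes.

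**Figure D1:**
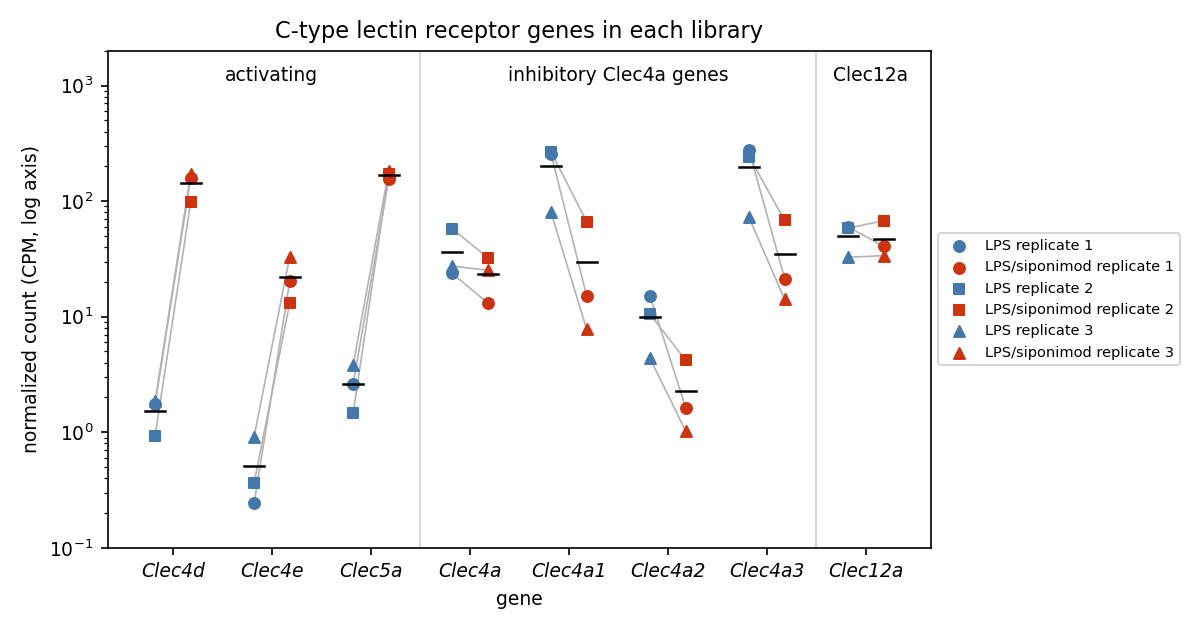
Normalized read counts (CPM, log axis) of the 8 receptor genes that passed the filter on low counts, for each library. Blue symbols are LPS and red symbols LPS/siponimod libraries, grey lines join same-numbered replicates and black bars are means of 3 libraries. In all 3 pairs Clec4d, Clec4e and Clec5a were higher in the LPS/siponimod library, Clec4a, Clec4a1, Clec4a2 and Clec4a3 were lower in each, and Clec4a and Clec12a overlapped between the conditions. Among all 11977 genes tested, 8481 moved the same way in the 3 pairs.

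The bases in front of the start of the 3 activating genes are shown because these genes moved together. The sequences are the 250 bases before the annotated start in RefSeq (assembly GRCr8, which is another assembly than the one used for mapping), written 5′ to 3′ along the gene, with matches to the searched motifs in capitals. They lie at chr4:158275093-158275342 (plus strand) for Clec4d, chr4:158298468-158298717 (minus strand) for Clec4e and chr4:70383507-70383756 (minus strand) for Clec5a.
Clec4d: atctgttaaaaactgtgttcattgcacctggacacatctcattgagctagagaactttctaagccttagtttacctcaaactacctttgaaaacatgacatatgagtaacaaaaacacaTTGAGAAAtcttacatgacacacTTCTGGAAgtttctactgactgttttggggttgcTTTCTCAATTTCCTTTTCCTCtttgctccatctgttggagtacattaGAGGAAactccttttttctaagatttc
Clec4e: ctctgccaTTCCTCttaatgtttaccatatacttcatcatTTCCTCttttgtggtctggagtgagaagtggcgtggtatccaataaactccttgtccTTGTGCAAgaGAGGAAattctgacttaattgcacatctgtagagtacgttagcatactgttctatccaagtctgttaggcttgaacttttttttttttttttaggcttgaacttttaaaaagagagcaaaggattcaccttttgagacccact
Clec5a: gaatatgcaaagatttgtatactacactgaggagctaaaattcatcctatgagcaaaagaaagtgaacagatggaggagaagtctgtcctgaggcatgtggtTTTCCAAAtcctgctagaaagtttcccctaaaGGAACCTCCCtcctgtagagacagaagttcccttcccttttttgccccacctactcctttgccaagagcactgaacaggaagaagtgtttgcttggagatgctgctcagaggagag
The letters searched on both strands were GAGGAA for the ETS site of PU.1, TTNNGNAA for C/EBP, TGATGNAA for the composite site of ATF4 and C/EBP, TGANTCA for AP-1, TGACGTCA for the cyclic AMP response element, GGGA and CC with any 4 bases between them for NF-kB, GAAA and GAAA with any 2 bases between them for the interferon-stimulated response element and TATAAA for the TATA box. Clec4d held 3 C/EBP matches (TTGAGAAA, TTCTGGAA and TTTCTCAA), PU.1 matches on either strand and an interferon-stimulated response element match (TTTCCTTTTC), which follows the last C/EBP match directly and shares bases with a PU.1 match. Clec4e held a C/EBP match (TTGTGCAA) beside a PU.1 match, and PU.1 matches further upstream. Clec5a held a C/EBP match (TTTCCAAA) and an NF-kB match (GGAACCTCCC), and no PU.1 match. Thus the C/EBP letters were found in 4 of the 9 receptor genes searched, namely all 3 activating genes and Clec12a. They were absent from Clec2d, which had more counts with LPS/siponimod, and from the Clec4a genes. The C/EBP letters occur in 37.2% of all 33469 promoters of this length. The motifs were chosen with earlier results of these data known. The PU.1 letters occur in 23.3%, those of NF-kB in 16.4% and those of the interferon-stimulated response element in 3.41%. A match is a description of letters and not a binding site.

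The 4 Clec4a genes, by contrast, were lower with LPS/siponimod in each pair. Of all 11977 genes tested, 8481 moved the same way in the 3 pairs, so that nothing is read from this agreement. The conditions did not overlap for Clec4a1, Clec4a2 and Clec4a3, and they overlapped for Clec4a. Clec4a1 was counted 9504, 10270 and 2968 times in LPS replicates 1, 2 and 3 and 701, 2961 and 318 times in LPS/siponimod replicates 1, 2 and 3, or 256, 267 and 79.9 CPM against 15.1, 66.3 and 7.76 CPM. The conditions did not overlap, but LPS replicate 3 was far below the other LPS libraries and close to LPS/siponimod replicate 2, the highest of its condition. The mean was 6.76-fold lower (SD, n = 3 each: 201 ± 105 and 29.7 ± 31.9 CPM), the log2 FC was -2.76 with a standard error of 0.90, and the differences within pairs 1, 2 and 3 were -4.08, -2.01 and -3.36. Without LPS/siponimod replicate 2 the log2 FC was -4.14.

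Clec4a3 followed the same order of libraries as Clec4a1 except for the highest LPS replicate. It had 10185, 9367 and 2681 counts with LPS and 994, 3040 and 579 counts with LPS/siponimod, and stood at 275, 243 and 72.2 CPM against 21.4, 68.1 and 14.1 CPM. LPS replicate 3 and LPS/siponimod replicate 2 were again next to each other across the gap. The mean was 5.70-fold lower (SD, n = 3 each: 197 ± 109 and 34.5 ± 29.3 CPM), and the log2 FC was -2.51 with a standard error of 0.76, and -3.48 without LPS/siponimod replicate 2.

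Clec4a2 was counted less often, with 558, 405 and 162 counts with LPS and 76, 187 and 42 counts with LPS/siponimod. Its levels were 15.1, 10.5 and 4.36 CPM against 1.64, 4.19 and 1.02 CPM. The conditions were separated only by the narrow step between LPS replicate 3 and LPS/siponimod replicate 2. The mean was 4.37-fold lower (SD, n = 3 each: 9.98 ± 5.37 and 2.28 ± 1.68 CPM), and the log2 FC was -2.13 with a standard error of 0.67, and -2.91 without LPS/siponimod replicate 2. Without both libraries numbered 3 the log2 FC was -2.68 for Clec4a1, -2.13 for Clec4a2 and -2.53 for Clec4a3.

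Clec4a itself, the gene of DCIR, had the smallest log2 FC of the 4 genes. It had 877, 2225 and 1018 counts with LPS and 612, 1451 and 1034 counts with LPS/siponimod, or 23.7, 57.8 and 27.4 CPM against 13.2, 32.5 and 25.2 CPM. Replicate 2 was the highest in both conditions, and the conditions overlapped. The log2 FC was -0.62 (standard error 0.45), the pairs differed by -0.84, -0.83 and -0.12, and without LPS replicate 2 the log2 FC was -0.10. With the replicate number as a block it was -0.60, with a smaller standard error of 0.19. Summed over the 4 Clec4a genes, the levels were 570, 578 and 184 CPM with LPS and 51.3, 171 and 48.1 CPM with LPS/siponimod (log2 FC -2.30, standard error 0.68). Clec4a1 and Clec4a3 held 89.6% of these summed counts with LPS and 71.6% with LPS/siponimod, without a correction for transcript length. Since the sources used here do not state how reads matching several genes or opposite strands were assigned, the split of counts between these paralogs is uncertain.

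The Clec4a genes and the genes of Clec4d and Clec4e lie in 1 cluster on chromosome 4. The RefSeq annotation of GRCr8 was read from the start of Clec4a1 to that of Clec4e, a window set by these genes. The order was Clec4a1, Clec4a3, Clec4a2, Clec4a, Clec4b2, Clec6a-ps1, Slbp-ps1, Clec4d and Clec4e, 9 entries in this window. Within it the Clec4a genes lie on the other side from Clec4d and Clec4e, and genes beyond it were not examined. Clec4b2 had 3, 2 and 1 counts with LPS and 6, 3 and 6 counts with LPS/siponimod and was not tested. Clec5a lies elsewhere on the same chromosome. Among the promoters of the 9 members that had an entry, those of Clec4a and Clec4a2 were the most alike, with 181 identical bases over 273 aligned columns (66.3%), followed by Clec4a3 and Clec4e with 52.5%. These promoters are shown as the most similar pair, of which Clec4a2 was separated between the conditions and Clec4a was not. They lie at chr4:158100365-158100614 (plus strand) for Clec4a and chr4:157934346-157934595 (plus strand) for Clec4a2.
Clec4a: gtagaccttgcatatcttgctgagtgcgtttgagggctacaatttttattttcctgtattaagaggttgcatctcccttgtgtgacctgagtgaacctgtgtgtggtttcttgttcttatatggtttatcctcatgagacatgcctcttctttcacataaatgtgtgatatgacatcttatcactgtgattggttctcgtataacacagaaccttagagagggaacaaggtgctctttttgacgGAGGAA
Clec4a2: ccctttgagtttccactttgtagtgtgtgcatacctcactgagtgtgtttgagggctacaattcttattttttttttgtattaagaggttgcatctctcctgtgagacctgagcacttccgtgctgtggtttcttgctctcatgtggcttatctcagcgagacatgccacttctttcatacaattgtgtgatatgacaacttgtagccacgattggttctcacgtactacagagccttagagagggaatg
In the same motif search, Clec4a held a PU.1 match at the bases next to its start and Clec4a2 held no match to any of the 8 motifs. Clec4a1 and Clec4a3 held PU.1 matches only, and Clec10a had no promoter entry.

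The contrast between the activating and the inhibitory genes turned over in every pair of libraries. The mean log2 CPM of Clec4d, Clec4e and Clec5a minus that of the 4 Clec4a genes was -5.98, -6.55 and -3.91 in LPS replicates 1, 2 and 3, and 3.11, 1.11 and 3.78 in LPS/siponimod replicates 1, 2 and 3. Every LPS library was below 0 and every LPS/siponimod library above it. The shift within pairs 1, 2 and 3 was 9.09, 7.66 and 7.69 (SD of the 3 pairs 0.82). From the fitted log2 FC, the mean was 6.01 for the activating and -2.002 for the Clec4a genes, and -2.46 for Clec4a1, Clec4a2 and Clec4a3 alone, while the median of all genes tested was -0.02. The difference of 8.01 between the activating and the Clec4a genes was 8.27 without both libraries numbered 3, and it lay between 7.52 and 9.02 when single libraries were left out. Since these genes were chosen for this contrast, its size is a description of the choice.

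**Figure D2:**
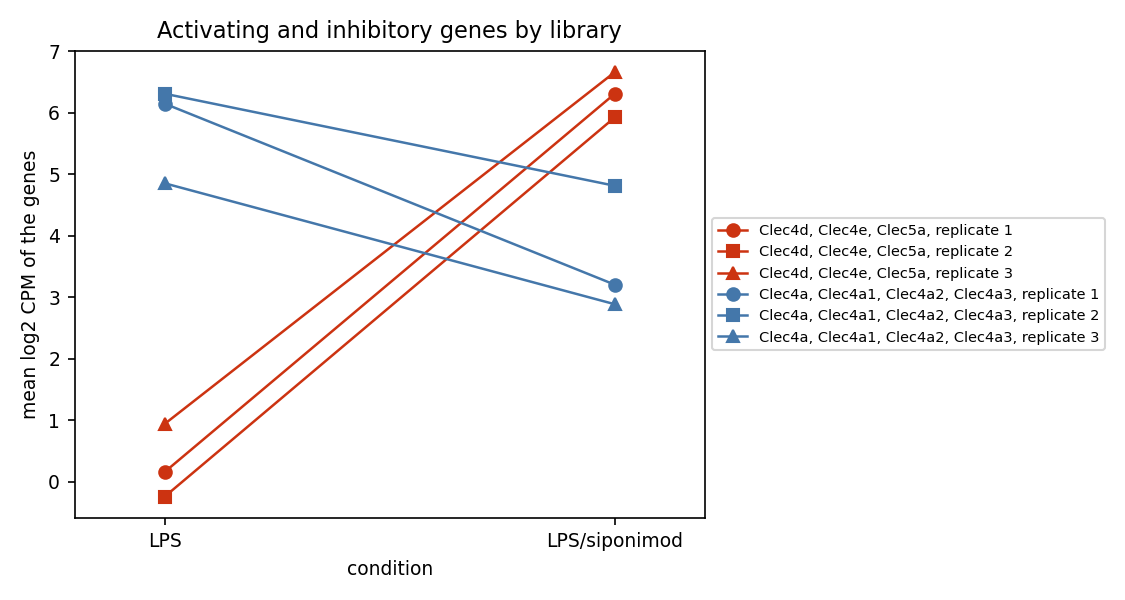
Mean log2 CPM of the activating genes (red) and of the Clec4a genes (blue) in each library, with lines joining the LPS and LPS/siponimod library of the same replicate number. The Clec4a genes were above the activating genes in all 3 LPS libraries and below them in all 3 LPS/siponimod libraries, with the smallest gap in LPS/siponimod replicate 2.

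Among the 8 genes tested, 3 were DEGs with higher counts (Clec4d, Clec4e and Clec5a), where 13.6% of all 11977 genes were called higher, and none was a DEG with lower counts, where 11.7% were called lower. As the genes were chosen on this contrast, nothing is read from these shares, and the calls that follow describe how the settings differed and support nothing. Clec4a1, Clec4a2 and Clec4a3 passed an unadjusted p of 0.05 in edgeR's quasi-likelihood test but not the adjusted threshold. With the replicate number as a block, 3 genes were called higher and 3 lower (Clec4a1, Clec4a2 and Clec4a3), and Clec4a passed the unadjusted p alone. DESeq2 called the same 6 genes, limma-voom called Clec4a1 and Clec4a3 lower but not Clec4a2, and without both libraries numbered 3 only Clec4a3 was called lower. When single libraries were left out, no Clec4a gene was called in 4 fits and 3 were called in the fits without LPS replicate 3 and without LPS/siponimod replicate 2. The libraries of the conditions did not overlap for 3 genes upwards and 3 downwards among the 8, where the share of all genes tested was 25.3% upwards, 24% downwards and 49.3% in either direction.

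Clec12a, an inhibitory receptor for uric acid crystals and dead cells, was at a like level in both conditions. It had 2222, 2244 and 1215 counts with LPS and 1889, 3020 and 1383 counts with LPS/siponimod, or 60.0, 58.2 and 32.7 CPM against 40.7, 67.7 and 33.7 CPM. Replicate 3 was the lowest in both conditions, and 2 of 3 pairs were higher with LPS/siponimod. The log2 FC was -0.09 (standard error 0.34), and its sign changed when LPS replicate 1 or 2 or LPS/siponimod replicate 1 or 3 was left out.

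Clec10a and Clec2d did not pass the filter on low counts when all 6 libraries were used. Both were tested without a filter and in some fits without a library, and Clec2d was called higher without a filter, without LPS replicate 3 and without LPS/siponimod replicate 2, whereas Clec10a was called in none. With 1, 1 and 0 counts in the LPS libraries, Clec2d could pass the filter only through the LPS/siponimod libraries, so that a call had to be upwards. Clec10a, a receptor for galactose-type sugars of macrophages, was counted 4, 1 and 4 times with LPS and 10, 25 and 26 times with LPS/siponimod. The ratio of the summed counts, 9 against 61, was 5.78 after scaling. Clec2d, a lectin-like ligand of NK cell receptors, was counted 1, 1 and 0 times with LPS and 18, 6 and 26 times with LPS/siponimod, a ratio of 21.3. Every LPS/siponimod library was above every LPS library for both genes, and the LPS counts lay near the floor of 3 counts. Both ratios pool the counts of the 3 libraries of a condition and leave out the spread between them. No interval is given, because these genes were chosen on this contrast.

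Replicates of a condition differed in a way that several of the genes shared. After centring each gene on the mean of its condition, the levels of Clec4a1, Clec4a2 and Clec4a3 correlated with Pearson's r between 0.967 and 0.989 over the 6 libraries, and those of Clec12a and Clec4a3 with r = 0.999. Clec4e ran the other way, with r of -0.895, -0.969, -0.950 and -0.950 against Clec4a1, Clec4a2, Clec4a3 and Clec12a. Clec4a correlated less with its paralogs (0.427, 0.275 and 0.403), and the activating genes correlated with each other with r between 0.504 and 0.709. Thus Clec12a, which did not differ between the conditions by more than its spread, followed the Clec4a paralogs among the replicates. In LPS replicate 3 Clec4a1, Clec4a2 and Clec4a3 deviated by -1.14, -1.01 and -1.23 from the mean of their condition on the log2 scale, and in LPS/siponimod replicate 2 by 1.74, 1.10 and 1.31. These are 6 points from 2 conditions, and no p-value is given.

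**Figure D3:**
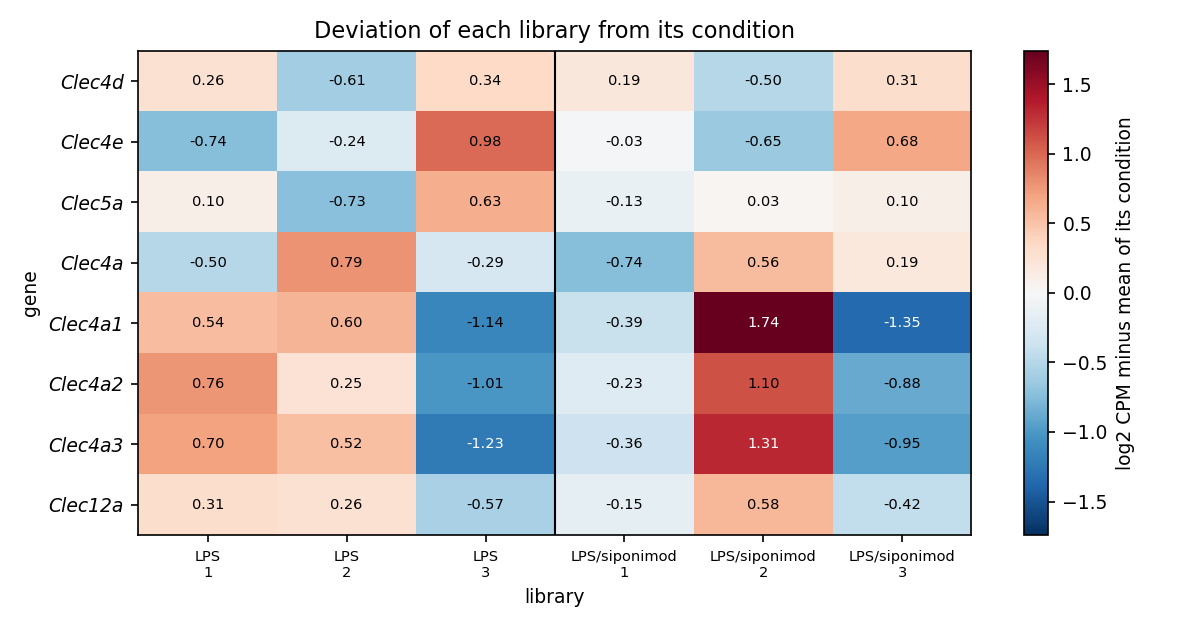
Deviation of log2 CPM from the mean of the condition, for each receptor gene (rows) and library (columns), with red above and blue below the mean. Clec4a1, Clec4a2, Clec4a3 and Clec12a were below their mean in LPS replicate 3 and LPS/siponimod replicate 3 and above it in LPS/siponimod replicate 2, whereas Clec4e was above its mean in both libraries numbered 3.

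Other genes of the C-type lectin family were next examined with the quasi-likelihood test. Of 56 further genes listed, 53 were in the tables, 16 had no count in any library and 19 were tested, with 5 higher (26.3%) and 3 lower DEGs (15.8%). The share among all genes tested was 13.6% higher and 11.7% lower, and the median log2 FC of the list was 0.16. Nothing is read from the higher share, because 3 of the 5 higher DEGs passed the filter through the LPS/siponimod libraries only. Clec7a (Dectin-1), the receptor for fungal beta-glucan, rose from 10.98, 5.79 and 6.24 CPM with LPS to 65.3, 58.2 and 47.0 CPM with LPS/siponimod, which is 2.89 on the log2 scale (standard error 0.30, adjusted p = 0.00568). The conditions lay far apart, and Clec7a remained a DEG in every fit without a library. Clec4n, the listed gene of Dectin-2, had a single count in LPS/siponimod replicate 2 and none elsewhere. Olr1, the receptor for oxidized lipoprotein, rose from 7.21 ± 7.46 to 112 ± 59.7 CPM (log2 FC 3.95, adjusted p = 0.023, SD, n = 3 each, edgeR quasi-likelihood). Its call was lost in 3 of 6 fits without a library and without both libraries numbered 3. In the fits without a library its log2 FC lay between 3.48 (without LPS/siponimod replicate 3) and 5.27 (without LPS replicate 1). The other 3 higher DEGs passed the filter on low counts through the LPS/siponimod libraries only and had to differ in order to be tested, so that no p-value is given for them. Klrb1a, an activating receptor of NK cells, had 6, 4 and 1 counts with LPS and 102, 100 and 67 counts with LPS/siponimod. Clec1a had 2, 0 and 0 counts with LPS and 28, 16 and 15 counts with LPS/siponimod. Thbd, thrombomodulin, was named after its values were seen and had 8, 2 and 8 against 26, 29 and 64 counts, and its call was lost in each of the 6 fits without a library.

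The lower DEGs of the family were Mrc1, Klrk1 and Clec2g. Mrc1, the mannose receptor of macrophages, fell from 370, 279 and 326 CPM to 51.1, 81.1 and 50.8 CPM (log2 FC -2.41, standard error 0.24, adjusted p = 0.0054), with little spread within either condition. Klrk1 (NKG2D), which signals through Hcst, fell from 8.47 ± 3.60 to 3.19 ± 0.521 CPM (log2 FC -1.41, adjusted p = 0.0285) and Clec2g, a lectin-like ligand, from 212 ± 39.5 to 112 ± 22.6 CPM (log2 FC -0.92, adjusted p = 0.0258, SD, n = 3 each, edgeR quasi-likelihood). The block gave 7 higher and 6 lower DEGs, and omission of both libraries numbered 3 gave 4 and 5. Omission of LPS replicate 2 left 1 gene in each direction, Clec7a and Mrc1. Among the 6 fits without a library, Klrk1 lost its call in 5 and Clec2g in 4.

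Genes of the activating signalling chain were examined in the same way. All 26 listed adaptors, kinases and signalling proteins were tested, of which 11 were lower DEGs (42.3%, against 11.7% of all genes tested), 1 was a higher DEG (3.85%, against 13.6%) and 14 were not called. The median log2 FC was -0.57, against -0.02 over all genes. This list and those that follow were drawn up with earlier results of these data known, so that nothing is read from their shares. Fcer1g, the adaptor of Clec4d and Clec4e, fell from 1752, 1757 and 1429 CPM to 838, 1089.5 and 762 CPM (log2 FC -0.88, standard error 0.21, adjusted p = 0.0274). Tyrobp stood at 501 ± 51.7 and 424 ± 99.3 CPM (log2 FC -0.24, adjusted p = 0.411) and Hcst at 2.54 ± 0.596 and 3.41 ± 0.659 CPM (log2 FC 0.43, adjusted p = 0.292). The adaptors of Clec5a thus overlapped between the conditions, whereas that of Clec4d and Clec4e did not.

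Syk, the kinase common to these receptors, stood at 295, 307 and 218 CPM with LPS and 126, 198 and 95.1 CPM with LPS/siponimod, a difference of -0.97 on the log2 scale (standard error 0.30). The conditions did not overlap, with an adjusted p of 0.0543 in the quasi-likelihood test and of 0.0131 with the replicate block. Card9, which carries the signal on to NF-kB, stood at 8.02, 14.2 and 9.23 CPM against 3.94, 14.4 and 8.07 CPM (log2 FC -0.25, quasi-likelihood adjusted p = 0.714), with replicate 2 highest in both conditions. Lat2, an adaptor of Syk signalling, fell from 71.2 ± 8.82 to 20.4 ± 6.20 CPM (log2 FC -1.80, adjusted p = 0.00733). Likewise the exchange factor Vav2 (log2 FC -1.29, adjusted p = 0.0125) and the kinases Fgr (log2 FC -1.45, adjusted p = 0.0171) and Btk (log2 FC -1.04, adjusted p = 0.0239) fell. Rasgrp3, an exchange factor for Ras, was the higher DEG, from 4.32, 3.66 and 4.28 CPM to 56.9, 26.1 and 58.8 CPM (log2 FC 3.53, adjusted p = 0.00536). Without both libraries numbered 3, 4 genes were lower DEGs, and the calls of Fcer1g and Btk were lost. Between 1 (without LPS replicate 2) and 11 genes were called lower when single libraries were left out, and 2 without LPS replicate 1, LPS/siponimod replicate 1 or LPS/siponimod replicate 3.

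The phosphatases and adaptors used by inhibitory receptors included 4 lower DEGs among 11 tested of 12 listed (36.4%, against 11.7% of all genes, median log2 FC -0.20). Nothing is read from this share, as the list was drawn up with earlier results known. None was a higher DEG in edgeR's quasi-likelihood test, in DESeq2 or in limma-voom, and 0 had an unadjusted p of at most 0.05 in that direction. Ptpn6 fell from 688, 984 and 759 CPM to 171, 489 and 234 CPM (log2 FC -1.44, standard error 0.41, adjusted p = 0.0449), whereas Ptpn11 stood at 86.2 ± 19.5 and 93.1 ± 4.19 CPM (log2 FC 0.11, adjusted p = 0.677, SD, n = 3 each, edgeR quasi-likelihood). Inpp5d (SHIP-1), a lipid phosphatase, fell from 276 ± 15.4 to 135 ± 40.0 CPM (log2 FC -1.03, adjusted p = 0.0225). Ubash3b, a phosphatase that acts on Syk (log2 FC -1.59, adjusted p = 0.0146), and Csk, which restrains Src family kinases (log2 FC -1.20, adjusted p = 0.0261), also fell. Without both libraries numbered 3 none of the 4 was called, and none was called without LPS replicate 2, LPS/siponimod replicate 1 or LPS/siponimod replicate 3. The call of Ptpn6 was also lost without LPS replicate 1 or 3, and its adjusted p was at most 0.145 when single libraries were left out.

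Receptors of other families that use the same partners were examined for comparison. Among activating receptors, 9 of 18 listed were tested, with 1 higher (11.1%, against 13.6% of all genes) and 3 lower DEGs (33.3%, against 11.7%) and a median log2 FC of -0.87. Trem3, a Tyrobp-coupled receptor, rose from 27.1, 10.8 and 8.88 CPM to 81.5, 67.4 and 82.2 CPM (log2 FC 2.30, adjusted p = 0.0162). Its log2 FC lay between 2.03 (without LPS replicate 3) and 2.98 (without LPS replicate 1) when single libraries were left out. Fcgr1a, which encodes a high-affinity receptor for IgG, fell from 725 ± 72.2 to 295 ± 93.4 CPM (log2 FC -1.30, adjusted p = 0.0169). The integrin genes Itgam (log2 FC -0.87, adjusted p = 0.0112) and Itgb2 (log2 FC -1.09, adjusted p = 0.0331) fell as well, and Itgam encodes CD11b, which the sorting beads bind. The calls of these 4 genes were all lost without both libraries numbered 3, where other genes of the list were called, 1 higher and 2 lower. With the block 2 were higher and 5 lower DEGs, and without LPS replicate 2 or LPS/siponimod replicate 1 or 3 none was called in either direction.

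Inhibitory receptors of other families included DEGs in both directions, 2 higher (10.5%) and 3 lower (15.8%) among 19 tested of 23 listed, with a median log2 FC of -0.39. These shares were near those of all genes tested, 13.6% higher and 11.7% lower. Lilrb4 rose from 72.7, 41.7 and 47.0 CPM to 596, 486 and 785 CPM (log2 FC 3.53, standard error 0.31, adjusted p = 0.00396) and remained a DEG in every fit without a library. Fcgr2b, which encodes the inhibitory receptor for IgG, rose from 68.0 ± 21.8 to 299 ± 130 CPM (log2 FC 2.14, adjusted p = 0.0145, edgeR quasi-likelihood). Cd244 fell from 81.4, 92.9 and 55.9 CPM to 7.79, 16.9 and 5.85 CPM (log2 FC -2.91, adjusted p = 0.00984), followed by the sialic acid receptors Siglec8 (log2 FC -3.26, adjusted p = 0.0189) and Siglec5 (log2 FC -1.07, adjusted p = 0.0289). The block gave 4 higher and 7 lower DEGs. The calls of Fcgr2b and Siglec5 were lost without both libraries numbered 3. The log2 FC of Siglec8 lay between -3.96 (without LPS/siponimod replicate 2) and -2.80 (without LPS/siponimod replicate 3). Its call was lost in 3 of 6 fits without a library. Without LPS/siponimod replicate 1 no gene was called lower, and without LPS replicate 1 or 2 a single gene was.

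Transcription factors with reported roles at myeloid C-type lectin genes included 6 higher DEGs among 13 tested of 14 listed (46.2%, against 13.6% of all genes) and no lower DEG in edgeR's quasi-likelihood test, with a median log2 FC of 0.76. As these factors were also listed with earlier results known, nothing is read from their share. Rela, a subunit of NF-kB, rose from 72.5, 63.3 and 69.0 CPM to 129, 112 and 117 CPM (log2 FC 0.80, adjusted p = 0.00886). Cebpb, a C/EBP factor of inflamed macrophages, rose from 106.3, 68.8 and 98.4 CPM to 221, 140 and 168 CPM (log2 FC 0.95, adjusted p = 0.0321), a call lost in 4 of 6 fits without a library and without both libraries numbered 3. Irf4 rose from 0.576 ± 0.102 to 4.54 ± 3.01 CPM (log2 FC 2.97, adjusted p = 0.0136) and Stat6 from 234 ± 14.9 to 395 ± 44.4 CPM (log2 FC 0.76, adjusted p = 0.0157, SD, n = 3 each, edgeR quasi-likelihood). The log2 FC of Irf4 lay between 2.29 (without LPS/siponimod replicate 3) and 3.25 (without LPS/siponimod replicate 2). The call of Irf4 was lost in 2 of 6 fits without a library. Spi1, the gene of PU.1, stood at 489 ± 14.7 and 349 ± 73.3 CPM, a gene named after its values were seen (log2 FC -0.49, adjusted p = 0.097). At an unadjusted p of at most 0.05, 3 factors were lower, limma-voom called 1 lower, and DESeq2 and the block each called 2. No factor was called without LPS replicate 2, and 2 were without LPS replicate 1 or LPS/siponimod replicate 1.

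Cytokines and enzymes known to be induced through Card9 included 2 higher (12.5%) and 1 lower DEG (6.25%) among 16 tested of 17 listed, with a median log2 FC of 0.95. The share of higher DEGs was near the 13.6% of all genes and that of lower DEGs under their 11.7%. Ptgs2 (cyclooxygenase-2) rose from 38.6, 29.0 and 187 CPM to 3100, 2402 and 6171 CPM (log2 FC 5.52, standard error 0.94, adjusted p = 0.0123). Its log2 FC lay between 5.02 (without LPS/siponimod replicate 3) and 6.85 (without LPS replicate 3) when single libraries were left out. Il1rn, the interleukin-1 receptor antagonist, rose from 203, 147 and 45.3 CPM to 4050, 1437 and 2170 CPM (log2 FC 4.28, standard error 0.70, adjusted p = 0.0112). Nlrp3, the inflammasome sensor, fell from 190 ± 56.2 to 44.8 ± 13.5 CPM (log2 FC -2.08, adjusted p = 0.00984, SD, n = 3 each, edgeR quasi-likelihood). The number of higher DEGs depended on LPS replicate 3, as 9 genes were called higher without it, 7 without both libraries numbered 3, and none without LPS replicate 2. DESeq2 and the block called 4 higher. The plot of log2 FC by gene list shows how far the lists overlapped.

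**Figure D4:**
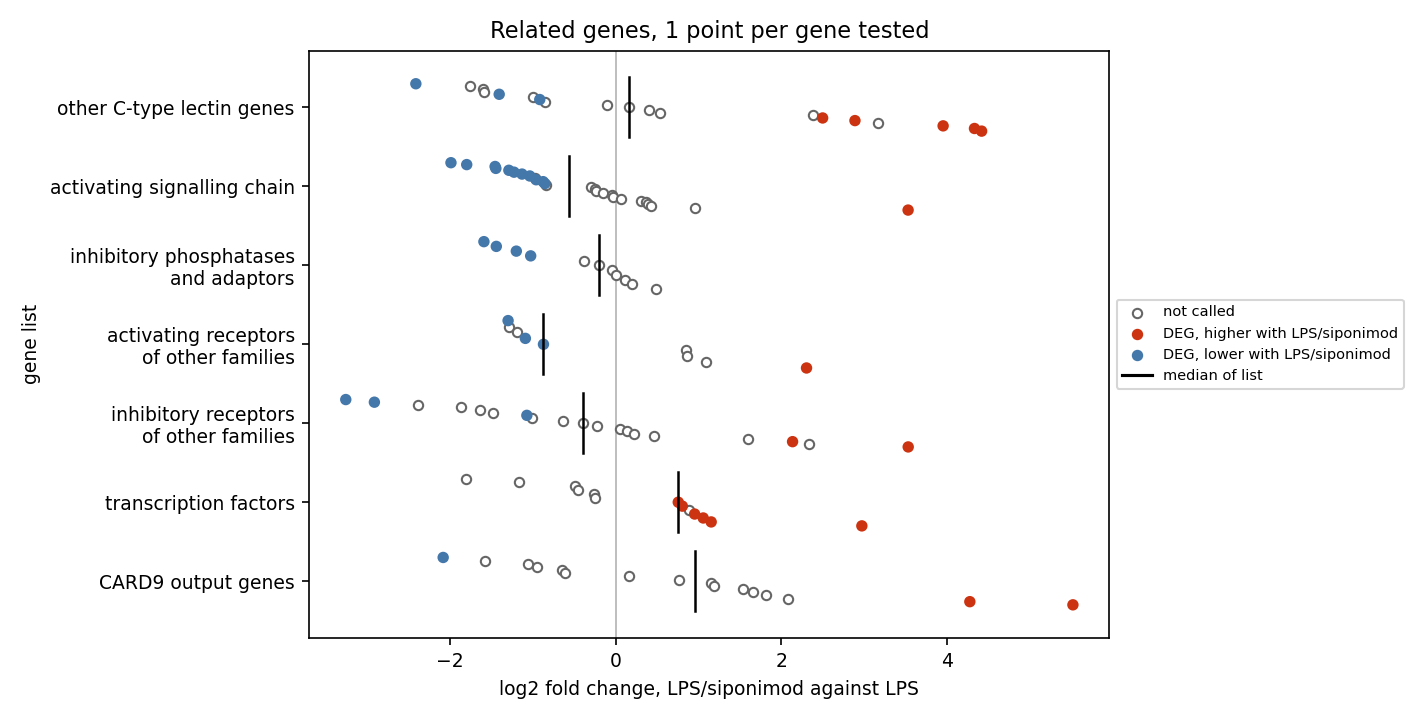
Log2 fold change of LPS/siponimod against LPS for each gene tested of the 7 related gene lists, 1 point per gene. Filled red and blue points are higher and lower DEGs, open points were not called, and the black bar is the median of the list. The activating signalling chain holds 11 lower DEGs among 26 genes and the transcription factors hold 6 higher DEGs among 13 genes, where 11.7% of all genes were lower and 13.6% higher DEGs. Nothing is read from these shares, because the lists were drawn up with earlier results of these data known.

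The genes most like the receptors over the 6 libraries were finally named by Pearson's r of log2 CPM with the mean standardized profile, as a description. For Clec4d, Clec4e and Clec5a these included Ints6 (0.9983), Slc1a4 (0.9981), Tmem72 (0.9981) and Abhd17b (0.998). Tmem72, a membrane protein, stood at 0.432, 0.286 and 0.646 CPM with LPS and 102, 53.7 and 156 CPM with LPS/siponimod. As 874 genes had an r above 0.95, this profile was that of many genes separated by condition. For the Clec4a genes the most similar were Pik3cd (0.998), Glud1 (0.9979), Cdc42bpg (0.9974), Tnnt1 (0.9968) and Hint2 (0.9961), and 515 genes had an r above 0.95. Pik3cd, the delta isoform of the catalytic subunit of PI3-kinase, stood at 297, 430 and 135 CPM with LPS and 26.3, 120 and 26.0 CPM with LPS/siponimod, so that LPS replicate 3 and LPS/siponimod replicate 2 lay next to each other as in Clec4a1. All 6 libraries fall into the 2 conditions, and no p-value is given.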

How the data were processed

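The authors sequenced polyA-selected mRNA as single-end reads, converted and demultiplexed them with bcl2fastq (version 2.20.0.422), trimmed them and mapped them to the rat genome mRatBN7.2 in the CLC Genomics Workbench. The deposited values are raw total counts of reads on each gene, 1 table per library. The table of LPS replicate 1 had 1 empty row, which was dropped.

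The quasi-likelihood fit used edgeR (version 4.0.16, in R version 4.3.3), filterByExpr (minimum count 10, minimum total 15), TMM scaling and the condition as the only term, so that all 6 libraries shared the estimate of spread. Standard errors were derived from the F statistic of each gene. Levels within pairs and correlations used log2 CPM with a prior count of 2. The floor was 3 counts. The procedure was tested on simulated data with known fold changes.

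The 10 receptor genes, the gene lists, the marker lists and the motifs were chosen with earlier results of these data known. Genes named are the 10 receptors, up to 4 DEGs per list and direction with the smallest adjusted p, fixed partners of the receptors, Clec7a, Dectin-2, and the 5 genes most like each receptor group. Of these last genes, 1 is not reported here. Outside this rule, Olig1, Pdgfra, Cd68, Csf1r, Cd163 and the other marker genes not called, Clec4b2, Thbd and Spi1 were named after their values were seen. Promoter sequences and gene order are from RefSeq, matched by symbol.

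As a check of pairing, deviations from the condition means were correlated over genes. Libraries sharing a number gave r of 0.42, 0.545 and 0.611, and the other combinations gave -0.534 to 0.0856. On these values, and not on a stated source, a shared number was taken to mark a pair. No replicates held identical values. Alternatives were RLE and library size scaling, DESeq2 (version 1.42.0), limma-voom (limma version 3.58.1), no filter, a mean of at least 1 CPM, the replicate block, each library left out, and both libraries numbered 3 left out, the last added after seeing the data.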

Additional observations from a re-analysis of the deposited data

How the results depend on the processing

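The receptor genes were chosen on the contrast tested, so that their direction across settings supports nothing, and their calls are given in the report. The number of DEGs was 3036, and it was 3062 with RLE scaling, 2972 with library size only, 3898 with DESeq2, 3099 with limma-voom, 2542 without a filter (17057 genes tested), 2886 at a mean of at least 1 CPM (10885 genes) and 2318 without both libraries numbered 3. When single libraries were left out it ranged from 651 (without LPS replicate 2) to 3713 (without LPS replicate 3), with 469 to 1941 higher and 182 to 1772 lower DEGs. The activating minus inhibitory difference ranged from 7.52 to 9.02.

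Among 43 DEGs named from the gene and marker lists, the call was lost for 21, 34 and 4 without LPS replicates 1, 2 and 3 and for 27, 3 and 24 without LPS/siponimod replicates 1, 2 and 3, and 8 kept it in all 6 fits (Clec7a, Flt1, Lat2, Lilrb4, Mrc1, Nlrp3, Rasgrp3 and Snap25). For Snap25, which passed the filter through the LPS/siponimod libraries only, a call had to be upwards. Of the genes named for their likeness to the receptors, Ints6, Slc1a4, Tmem72 and Abhd17b kept their call as well. These genes were chosen for likeness to a profile separated by condition, so that their kept calls support nothing. Without both libraries numbered 3, 21 of the 43 lost the call. Ptpn6 lost it with library size scaling (adjusted p = 0.0556), Dcn and Thbd with limma-voom, and Clec1a, Ptpn6, Sall1, Cx3cr1 and Thbd without a filter.

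With the replicate block there were 4074 DEGs. Besides the changes given in the report, pairing as a block gave 6 lower other C-type lectins, 2 higher and 5 lower activating receptors, 4 higher and 7 lower inhibitory receptors, 2 lower transcription factors and 4 higher CARD9 output genes. Among the named genes fitted with it, it changed the calls of Sall1, Syk, Clec4a1, Clec4a2, Clec4a3, Csf1r, Csf3r, Siglec1, Cdh5, Pik3cd, Cdc42bpg and Tnnt1.

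Other C-type lectins counted 3 higher without a filter and 3 at a mean of at least 1 CPM. DESeq2 gave 2 higher activating receptors, 6 lower inhibitory receptors, 2 lower transcription factors, and 4 higher and 2 lower CARD9 output genes. RLE and limma-voom each gave 1 lower transcription factor. Without both libraries numbered 3 there were 5 lower other C-type lectins, 4 lower genes of the activating chain, 0 lower phosphatases, 1 lower transcription factor and 7 higher CARD9 output genes.

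With single libraries left out, the numbers of higher and lower DEGs ranged from 1 to 6 and 1 to 5 for other C-type lectins, 1 to 2 and 1 to 11 for the activating chain, 0 to 1 and 0 to 4 for inhibitory phosphatases, 0 to 2 and 0 to 3 for activating receptors, 1 to 3 and 0 to 5 for inhibitory receptors, 0 to 6 and 0 to 1 for transcription factors, and 0 to 9 and 1 to 2 for CARD9 output genes. Fewer samples remain in these fits.

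The sign of Clec12a (range -0.44 to 0.11 with single libraries left out) turned without LPS replicate 1 (0.068) or 2 (0.038) and without LPS/siponimod replicate 1 (0.0074) or 3 (0.11). That of Card9 (range -0.82 to 0.094) turned without LPS replicate 2 (0.041) or LPS/siponimod replicate 1 (0.094), and that of Ptpn11 (range -0.033 to 0.28) without LPS replicate 1 (-0.033). That of Cd68 (range -0.20 to 0.27) turned without LPS replicate 2 or 3, without LPS/siponimod replicate 1, without a filter (-0.00442) and without both libraries numbered 3 (-0.043), and that of Slc1a3 (range 0.050 to 1.03) without both libraries numbered 3 (-0.21). The cause of these changes was not tested. The few counts of Clec10a and Clec2d in the LPS libraries limit what can be said of these genes.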
